A study of Macaca mulatta with 12 samples.

Results

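The potassium channel genes were taken as every probe set whose only gene symbol in the platform's probe table starts with KCN. These were 55 of the 12558 probe sets other than array controls, and they stand for 43 of the 8226 genes that carry a single symbol. Each gene was represented by its brightest probe set over the 12 arrays, and the remaining probe sets served as a check. The RNA came from female rhesus macaques (Macaca mulatta) and from a midbrain cell group rich in serotonin neurons, the dorsal raphe nucleus, and each monkey was read on its own human U95A Affymetrix array. The groups were estrogen, progesterone, estrogen plus progesterone (called both hormones here) and placebo, with 3 monkeys in each. Steroid crystals were carried for 1 month in Silastic capsules under the skin, and the labels state neither dose nor age. The placebo labels alone carry the code OVX, and progesterone arrays have EP codes in their titles but P1 to P3 in their source names, which set the group here.

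Potassium channels let potassium leave or enter the cell and so set the resting potential, the shape of the action potential and the rate of firing. Voltage-gated channels open on depolarization, calcium-activated channels link firing to an afterhyperpolarization, inward rectifiers and tandem-pore channels hold the resting potential, and auxiliary subunits tune the pore-forming ones. In rodent raphe neurons the serotonin autoreceptor opens G-protein-gated inward rectifiers, which slows firing, and small-conductance calcium-activated channels shape the pacemaker interval.

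Testing was limited to probe sets that were bright enough, which held 26 of the 43 genes. None of these 26 passed limma's test in any comparison after Benjamini-Hochberg adjustment over all 7535 tested probe sets. Over all tested probe sets, the share with an unadjusted p under 0.05 against placebo was 8.24% with progesterone, 3.16% with estrogen and 3.38% with both hormones. Of the 5 member values under that threshold, 4 belonged to progesterone alone. There the G-protein-gated inward rectifier KCNJ6, the vascular inward rectifier KCNJ8 and the fast voltage-gated channel KCNC4 read lower, and the tandem-pore channel KCNK3 read higher. The other was the A-type channel KCND1, which read higher with both hormones. Estrogen alone brought no member to an unadjusted p under 0.05. Because probes designed for human transcripts met macaque RNA, mismatches as well as abundance set an intensity, and no level was set against that of another gene. In bulk tissue, fewer cells of a type and less RNA per cell cannot be told apart.

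A few facts of the whole series touch these values. Estrogen array 1 and both-hormone array 1 read 841 and 1354 on the 28S ribosomal RNA control, against 64.2 to 179 on the other 10 arrays. Their ratio of 3′ to 5′ GAPDH signal, a measure of RNA integrity, was 2.45 and 2.05, against 0.892 to 1.46 on the others. The means of both these groups include 1 such array. Values without these arrays are given too for KCNJ6, KCNC4, KCND1, KCND2, KCNA6, KCNK3, KCNN3, KCNQ1 and the partner genes. The tissue was checked on 10 serotonin neuron markers, of which 9 were named on the array and 8 were tested. The serotonin transporter SLC6A4 averaged 376 with estrogen, 282 with progesterone, 390 with both hormones and 435 with placebo, while TPH1 averaged under 2 in every group and TPH2 was not among the named probe sets.

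Of the 43 genes, 26 were bright enough to be tested and 17 were not. The tested ones were 8 of 11 genes of the KCNA to KCND subfamilies, 2 of 6 modifying subunits (KCNF, KCNG, KCNS and KCNV), 3 of 4 KCNH and KCNQ genes, 5 of 10 KCNJ genes, 2 of 3 KCNK genes, 3 of 4 calcium-activated channels and 3 of 5 auxiliary subunits. The filter removed the dimmest 40% of probe sets by their mean over all arrays. By that mean, taken on the normalized log2 scale, KCNA6 was the member just inside the filter and KCNJ5 the one just outside it. KCNV1 read under the offset of 8.26 on every array, so no change of it could have been measured, and the other 16 dim genes exceeded the offset on at least 1 array.

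**Figure D1:**
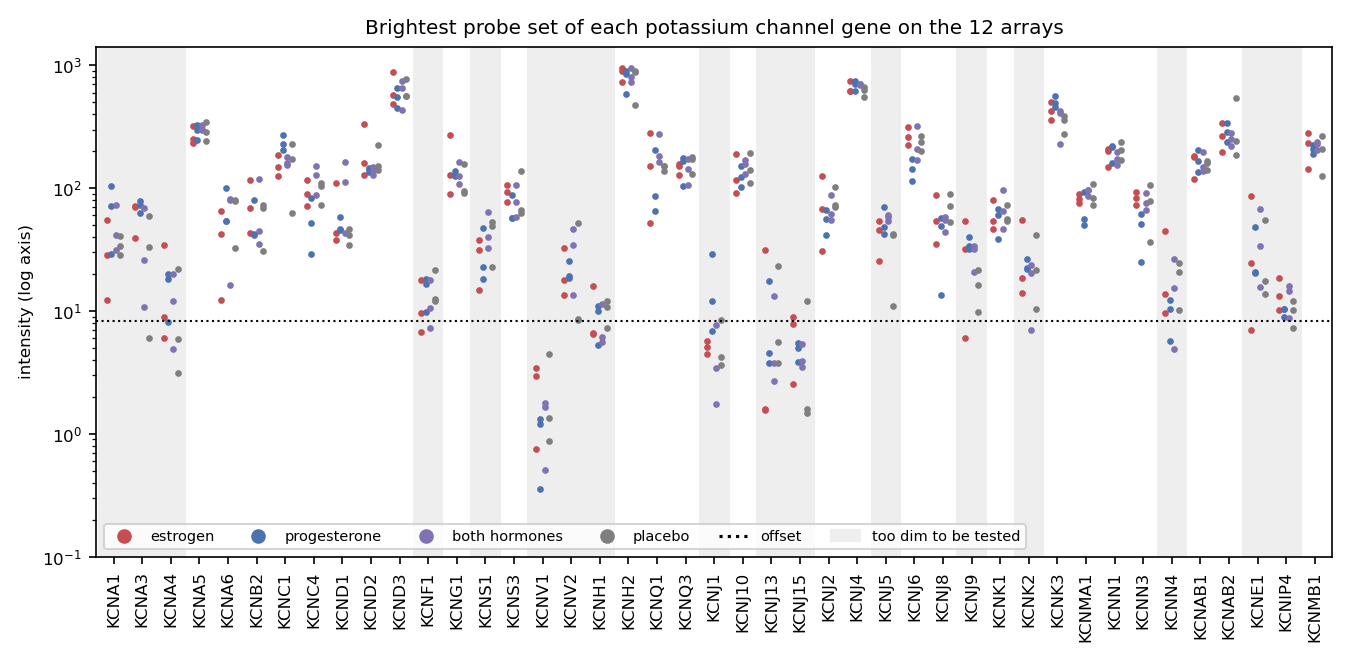
Intensity as deposited (log axis) of the brightest probe set of each of the 43 potassium channel genes, 1 point per array, with the estrogen, progesterone, both-hormone and placebo arrays side by side within each gene. Grey columns mark the 17 genes too dim to be tested, and the dotted line is the offset of 8.26, above which KCNV1 has no point.

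The inward rectifiers of the KCNJ subfamily pass potassium more easily into than out of the cell and stabilise the resting potential. KCNJ6 encodes GIRK2, a subunit of the channels that serotonin, GABA-B and opioid receptors open through G proteins. Its intensities were 226, 312 and 259 on the estrogen arrays, 174, 114 and 142 on the progesterone arrays, 208, 323 and 171 on the both-hormone arrays, and 265, 239 and 200 on the placebo arrays. Every progesterone array lay below every placebo array and below every estrogen array. Among the both-hormone arrays, array 3 lay within the progesterone range.

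The log2 change of KCNJ6 with progesterone was −0.67 ± 0.24 (SE), with a 95% interval of −1.20 to −0.14. Its unadjusted p was 0.0172 and limma's adjusted p was 0.526, so it did not pass. Against placebo, KCNJ6 had log2 changes of 0.17 in the estrogen group and −0.05 in the both-hormone group. The log2 difference of both hormones against progesterone alone was 0.62 ± 0.24 (SE, limma adjusted p = 0.540), 0.38 without both-hormone array 2 and 0.70 without the 2 arrays of high ribosomal signal. Over the 4 groups KCNJ6 had an unadjusted F test p of 0.0235 (adjusted 0.799).

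The serotonin neuron markers are given beside KCNJ6. Of the 8 tested, 1 was higher and 7 were lower with progesterone than with placebo, with a median log2 change of −0.40 and no marker past limma's adjusted threshold. Their summed intensity, with the dim TPH1, ran from 1129 to 1232 on the progesterone arrays and from 1336 to 1670 on the placebo arrays. It ran from 1513 to 1592 with estrogen and from 1186 to 1604 with both hormones. The part of these cells in the KCNJ6 values was not tested.

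The other subunits of G-protein-gated rectifiers were dim. KCNJ9, which encodes GIRK3, read 34.0, 40.1 and 32.1 on the progesterone arrays and 16.4, 21.4 and 9.74 on the placebo arrays, opposite in direction to KCNJ6 and with no overlap. KCNJ5, which encodes GIRK4, read 58.6, 53.7 and 60.8 with both hormones and 10.98, 41.8 and 42.7 with placebo, again without overlap. Both probe sets lay under the brightness filter. In a fit with no filter the log2 change of KCNJ9 with progesterone was 0.81 (adjusted p = 0.713), and that of KCNJ5 with both hormones was 0.81 (adjusted p = 0.9998). KCNJ3, which encodes GIRK1, had no probe set under its own symbol and was not analysed here.

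KCNJ8 encodes the pore of the ATP-sensitive channel of pericytes and vascular smooth muscle. It read 13.5, 48.9 and 57.7 with progesterone and 89.9, 53.1 and 72.1 with placebo, so the groups overlapped. Its log2 change was −0.88 ± 0.39 (SE, unadjusted p = 0.0426, limma adjusted p = 0.583). Progesterone array 1, at 13.5, decided the size of the KCNJ8 value, and without that array the log2 change was −0.38. It is named here although it met no part of the naming rule, because its p was one of few under 0.05. Of the 5 tested endothelial and pericyte markers, 2 were higher and 3 lower with progesterone (median −0.05), and their summed intensity, with the dim CDH5, ran from 555 to 899 on the progesterone arrays and from 724 to 767 on the placebo arrays. Their part in the KCNJ8 values was not tested.

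KCNJ2, the strong rectifier that holds the resting potential of many excitable cells, read 41.6, 66.1 and 55.7 with progesterone and 102, 73.5 and 70.7 with placebo. These groups did not overlap, but the log2 change of −0.55 ± 0.35 (SE) had an unadjusted p of 0.144. Estrogen arrays of KCNJ2 spread from 30.6 to 126, wider than the other groups. KCNJ4, another strong rectifier found mainly in forebrain neurons, had the smallest spread within groups of the 26 members. It read 709, 707 and 685 with both hormones and 556, 664 and 630 with placebo, again without overlap, and the fit put the log2 change at 0.19 ± 0.16 (SE, limma adjusted p = 0.999). Without placebo array 1, at 556, that KCNJ4 value was 0.13. KCNJ10, the astrocyte channel that takes up potassium released by firing, averaged 132 ± 50.2 with estrogen, 125 ± 23.7 with progesterone, 152 ± 19.6 with both hormones and 148 ± 42.8 with placebo (SD, n = 3 each). Its groups overlapped throughout, with an F test p of 0.714. Of 9 tested astrocyte markers, 5 were higher and 4 lower with progesterone, and their summed intensity ran from 6975 to 7182 there and from 4335 to 7742 with placebo. The low end with placebo was array 1, where a single marker, SLC1A2, read 293, against 3373 to 5208 on every other array. The astrocyte markers with an unadjusted limma p under 0.05 with progesterone were all lower. They were SOX9 (−0.80), GLUL (−0.45) and GFAP (−0.42), and none passed limma's adjusted threshold. The part of astrocytes in the KCNJ10 values was not tested.

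Of the 5 tested KCNJ genes, 1 had a positive and 4 had a negative log2 change with progesterone, with a median of −0.55. The median over the 26 potassium channel genes was −0.08 and that over all tested probe sets was 0.0022. With estrogen the KCNJ median was −0.18 and with both hormones −0.05. The remaining KCNJ genes on the array, the kidney channel KCNJ1 together with KCNJ13 and KCNJ15, averaged under 10 over the 12 arrays. The untested KCNJ genes had log2 changes with progesterone, in a fit with no filter, that did not all share the negative sign of the KCNJ median with progesterone. These were 0.81 (KCNJ9), 0.72 (KCNJ5), 0.67 (KCNJ1), −0.18 (KCNJ13) and −0.0021 (KCNJ15), with limma adjusted p no lower than 0.658.

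**Figure D2:**
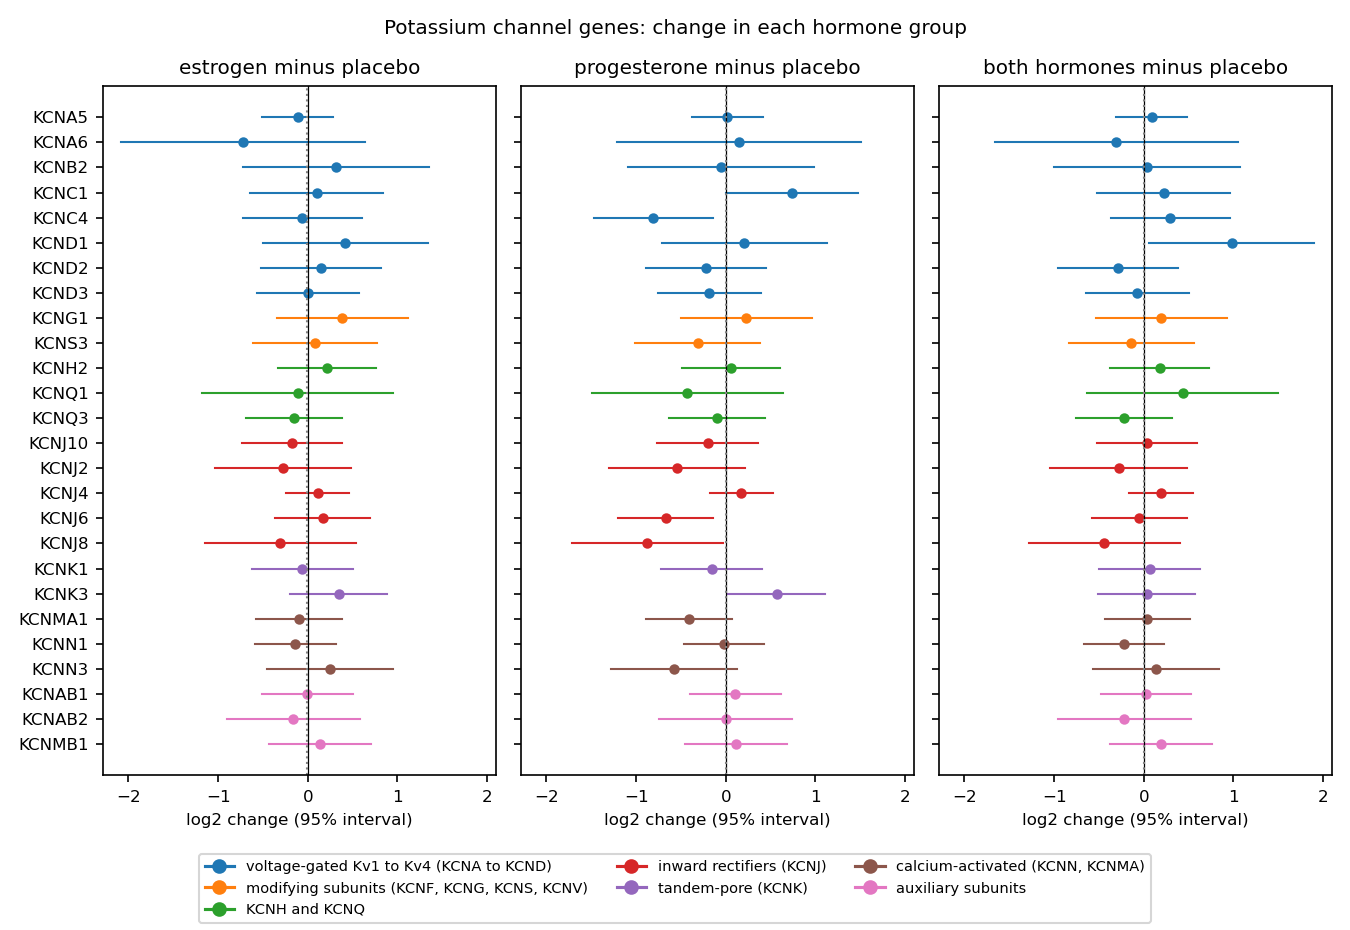
Log2 change and its 95% interval (limma fit over all 12 arrays) for the 26 tested potassium channel genes, grouped by class, in estrogen, progesterone and both hormones, each minus placebo. The dotted line is the median of all tested probe sets. No interval excludes 0 with estrogen, those of KCNJ6, KCNC4, KCNJ8 and KCNK3 do with progesterone, and that of KCND1 does with both hormones.

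Voltage-gated channels of the KCNA to KCND subfamilies repolarize the membrane after each spike. KCNC4 belongs to the KCNC subfamily, whose fast channels allow brief spikes and high firing rates. It read 116, 90.1 and 71.1 with estrogen, 82.7, 52.5 and 29.3 with progesterone, 152, 88.7 and 128 with both hormones, and 72.6, 104 and 110 with placebo. Progesterone array 1 lay above placebo array 1, so these groups overlapped, while every both-hormone array lay above every progesterone array. The KCNC4 log2 change with progesterone against placebo was −0.81 ± 0.30 (SE, unadjusted p = 0.0208, limma adjusted p = 0.528). Without progesterone array 3, at 29.3, it was −0.48.

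KCNC4 had the smallest p of all members in a single comparison. For both hormones against progesterone alone its log2 difference was 1.10 ± 0.30 (SE), with a 95% interval of 0.44 to 1.76, an unadjusted p of 0.00351 and a limma adjusted p of 0.413. Without the 2 arrays of high ribosomal signal it was 0.97 (adjusted p = 0.473). The interaction of the hormones, which asks whether progesterone's effect depends on estrogen, was 1.16 ± 0.43 for KCNC4 (SE, limma adjusted p = 0.923). Its F test over the 4 groups gave an unadjusted p of 0.0207 (adjusted 0.781). A second KCNC4 probe set, too dim to be tested, read 32.0, 76.9 and 40.9 with progesterone and 35.0, 105 and 38.3 with placebo. Its log2 change in a fit with no filter was −0.15, so the change of the brighter probe set was not matched in size by the other. With both hormones against placebo the dim probe set had −0.46, below its progesterone value, where the brighter one had 0.29. The rise from progesterone to both hormones was thus not seen in the dim probe set.

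KCNC1, the other gene of the subfamily on the array, read 273, 205 and 228 with progesterone and 62.9, 173 and 230 with placebo. Its log2 change was 0.74 ± 0.34 (SE, unadjusted p = 0.0507, limma adjusted p = 0.612), opposite in direction to KCNC4. Placebo array 1 was the lowest of the 12 arrays for KCNC1. Both-hormone arrays of KCNC1 read 179, 160 and 154, all below the progesterone arrays.

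The KCND subfamily carries the transient A-type current that delays the next spike. KCND1 read 111, 43.5 and 37.7 with estrogen, 58.0, 46.5 and 45.4 with progesterone, 43.0, 164 and 113 with both hormones, and 34.4, 46.9 and 41.9 with placebo. Arrays 2 and 3 of the both-hormone group were high and array 1 lay within the placebo range, while among the estrogen arrays only array 1 was high. The 2 arrays that differed from their group mates, estrogen array 1 and both-hormone array 1, are those with the high ribosomal signal, and the part of that signal in the values was not tested. KCND1's log2 change with both hormones was 0.98 ± 0.42 (SE, unadjusted p = 0.0384, limma adjusted p = 0.999).

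Without the 2 arrays of high ribosomal signal, KCND1 gave a log2 change of 1.55 with both hormones against placebo, with an unadjusted p of 1.76e-05 and a limma adjusted p of 0.0662. Against estrogen the log2 difference was then 1.496 (adjusted p = 0.367), and 0.56 ± 0.42 (SE) with all arrays. Against progesterone it was 1.33 (adjusted p = 0.0652) without these arrays and 0.77 with all arrays. These values rest on 2 both-hormone arrays, and without both-hormone array 2 alone the change was 0.59 against placebo and 0.17 against estrogen. Leaving out any other single array of the estrogen and both-hormone groups put the KCND1 difference from estrogen between 0.35 and 1.12. The array has a single KCND1 probe set.

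KCND2 read 127, 331 and 161 with estrogen, 137, 128 and 149 with both hormones, and 223, 140 and 152 with placebo. Its log2 difference between both hormones and estrogen was −0.43 ± 0.31 (SE), the smallest unadjusted p of that comparison at 0.188. Estrogen array 2, at 331, carried that difference, which was −0.04 without it and −0.73 without the 2 arrays of high ribosomal signal. KCND3 averaged 645 ± 204 with estrogen, 552 ± 103 with progesterone, 610 ± 163 with both hormones and 632 ± 117 with placebo (SD, n = 3 each). Its 3 tested probe sets gave log2 changes with progesterone of −0.18, 0.63 and −0.08.

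Among the KCNA and KCNB genes, KCNA5 averaged 268 ± 46.7 with estrogen, 289 ± 41.5 with progesterone, 308 ± 15.8 with both hormones and 290 ± 53.6 with placebo (SD, n = 3 each), with an F test p of 0.740. KCNA6 had the widest spread of the tested members. It read 12.4 on estrogen array 1 and 16.4 on both-hormone array 1, the arrays of high ribosomal signal, and 32.5 to 99.8 on the other 10. Its log2 change with estrogen, −0.72, had a 95% interval of −2.08 to 0.64 and was −0.09 without those arrays. With both hormones KCNA6 had −0.30 on all arrays and 0.39 without them, so the sign turned. KCNB2, a delayed rectifier, had a log2 change of 0.31 for estrogen, −0.06 for progesterone and 0.03 for both hormones, and its arrays ran from 30.7 to 118. KCNA1 read 12.3 to 104 and KCNA4 3.14 to 34.2 over the 12 arrays, and neither was tested.

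KCNA3, a channel best known from T cells and activated microglia, was also too dim to be tested. It read 78.5, 63.3 and 73.2 with progesterone and 6.07, 59.5 and 32.9 with placebo, so these arrays did not overlap, and the log2 change in a fit with no filter was 1.22 (adjusted p = 0.690). All 4 tested microglial markers (CD68, AIF1, CSF1R and CD14) had positive log2 changes with progesterone, at a median of 0.31, and none passed limma's adjusted threshold. Their summed intensity, with the dim ITGAM, ran from 830 to 1001 on the progesterone arrays and from 639 to 727 on the placebo arrays. With estrogen KCNA3 had 0.95 in the fit with no filter, while 1 of these markers was higher and 3 were lower (median −0.15). With both hormones KCNA3 had 0.05, and 3 markers were higher and 1 lower (median 0.13). The part of microglia in the KCNA3 values was not tested, and KCNA3 was singled out after its values were seen.

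Over the 8 tested genes of the KCNA to KCND subfamilies, positive log2 changes numbered 5 for estrogen (median 0.05), 4 for progesterone (median −0.02) and 5 for both hormones (median 0.06).

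**Figure D3:**
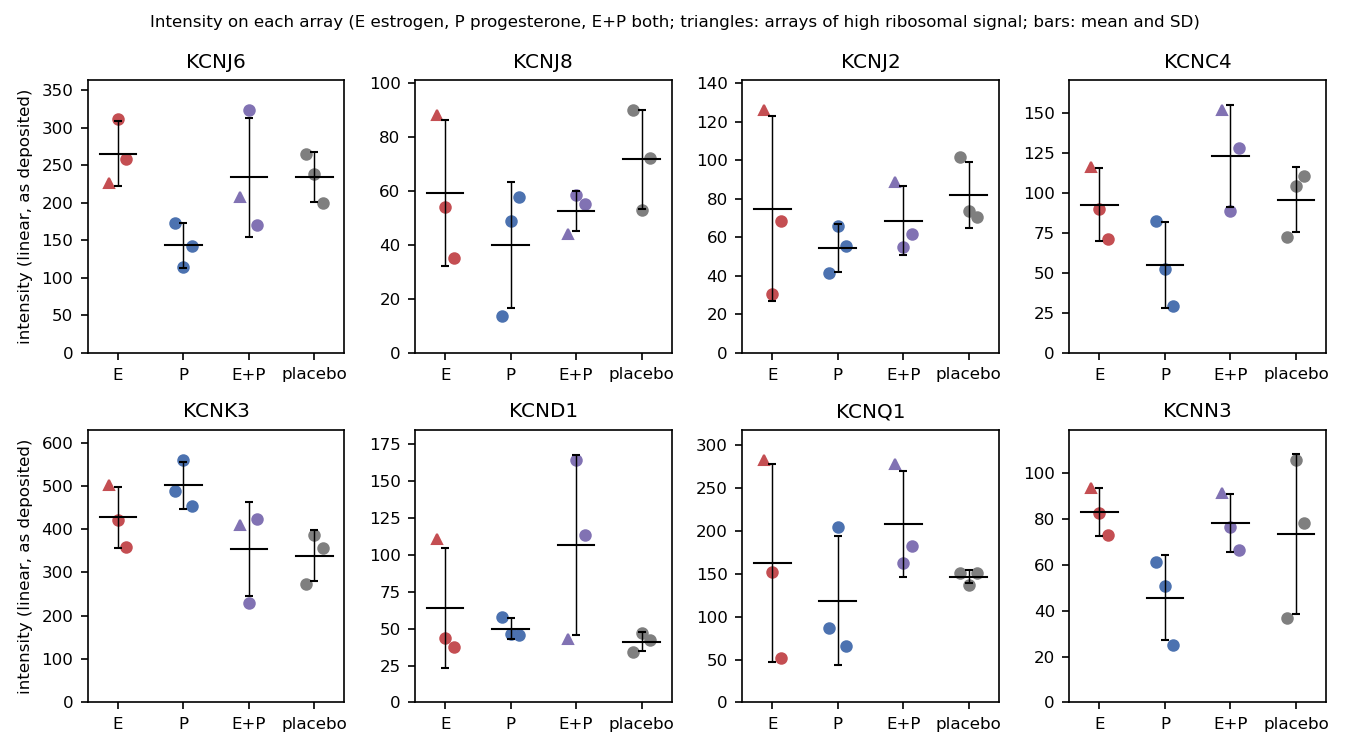
Intensity as deposited (linear axis from 0) of 8 potassium channel genes on each array, with the estrogen (E), progesterone (P) and both-hormone (E+P) arrays left of the placebo arrays. Horizontal bars and whiskers are mean and SD of 3 arrays, and triangles mark the 2 arrays of high ribosomal signal. All 3 progesterone arrays of KCNJ6 lie below placebo, all 3 of KCNK3 lie above it, and in KCND1 the triangles sit apart from the other arrays of their groups.

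Tandem-pore channels are open at rest and set the leak current. KCNK3, which encodes the acid-sensitive leak channel TASK1, read 501, 421 and 359 with estrogen, 489, 560 and 454 with progesterone, 409, 229 and 425 with both hormones, and 273, 387 and 356 with placebo. All 3 progesterone arrays lay above all placebo and all both-hormone arrays. The KCNK3 log2 change with progesterone was 0.57 ± 0.25 (SE), with a 95% interval of 0.03 to 1.11, an unadjusted p of 0.0404 and a limma adjusted p of 0.576. Without placebo array 1, at 273, that change was 0.45. In 8 of 23 alternative fits its unadjusted limma p was 0.05 or over. The difference of both hormones against progesterone alone was −0.54 ± 0.25 (SE, limma adjusted p = 0.647). KCNK3 gave −0.68 there without the 2 arrays of high ribosomal signal (limma unadjusted p = 0.0276, adjusted p = 0.496). Its interaction value was −0.88 ± 0.35 (SE, limma adjusted p = 0.954), opposite in sign to that of KCNC4.

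A second KCNK3 probe set read between 7.56 and 22.6, too dim to be tested, and gave a log2 change of −0.05 with progesterone in a fit with no filter. KCNK1 averaged 60.1 ± 17.3 with estrogen, 55.7 ± 15.1 with progesterone, 69.2 ± 24.8 with both hormones and 61.2 ± 10.5 with placebo (SD, n = 3 each). KCNK2, the mechanically gated TREK1 channel, read 6.94 to 55.5 and was not tested.

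Calcium-activated channels open when calcium enters during firing. KCNN3, the small-conductance channel SK3, read 93.7, 82.7 and 72.9 with estrogen, 61.3, 50.7 and 25.1 with progesterone, 91.5, 76.4 and 66.6 with both hormones, and 36.7, 106 and 78.2 with placebo. The progesterone arrays lay below all both-hormone and all estrogen arrays, while placebo array 1 lay among them. For both hormones against progesterone the log2 difference of KCNN3 was 0.72 ± 0.32 (SE, unadjusted p = 0.0460, limma adjusted p = 0.629). It was 0.65 without the 2 arrays of high ribosomal signal (limma unadjusted p = 0.130, adjusted p = 0.665). Against placebo, progesterone gave −0.58 ± 0.32 (SE, unadjusted p = 0.0977).

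KCNN1, the small-conductance channel SK1, averaged 186 ± 32.2 with estrogen, 200 ± 34.2 with progesterone, 175 ± 20.9 with both hormones and 204 ± 33.3 with placebo (SD, n = 3 each), and its F test p was 0.681. KCNN2 had no probe set under its symbol and was not analysed here, and KCNN4, known mainly from blood cells and epithelia, read 4.93 to 44.6.

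KCNMA1 encodes the large-conductance channel gated by both voltage and calcium. Its brightest probe set read 55.7, 92.8 and 49.9 with progesterone and 82.7, 73.1 and 108 with placebo, giving −0.41 ± 0.22 on the log2 scale (SE, unadjusted p = 0.0845, limma adjusted p = 0.677). A dimmer KCNMA1 probe set read the other way, at 46.2, 36.6 and 49.2 with progesterone and 12.5, 17.6 and 22.9 with placebo. That probe set gave a log2 change of 0.97 (unadjusted p = 0.0311, adjusted p = 0.616) in a fit with no filter, and the remaining probe set gave 0.02. The 3 probe sets of KCNMA1 thus gave no common direction with progesterone.

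KCNH2, the ether-a-go-go related channel best known from cardiac repolarization, read 733, 893 and 946 with estrogen, 851, 582 and 895 with progesterone, 731, 808 and 949 with both hormones, and 479, 903 and 888 with placebo. Its groups overlapped, with an F test p of 0.817, and its second tested probe set had an F test p of 0.992. KCNQ1, the slow delayed rectifier best known from heart and inner ear, read 278, 163 and 182 with both hormones and 151, 137 and 151 with placebo, without overlap. Its log2 change was 0.43 ± 0.49 (SE, limma adjusted p = 0.999). KCNQ1 was highest on the 2 arrays of high ribosomal signal, at 283 on estrogen array 1 and 278 on both-hormone array 1, and without them the change was 0.22. A second KCNQ1 probe set, too dim to be tested, gave −0.17 with both hormones in a fit with no filter, opposite in sign. KCNQ3, a subunit of the M-current that muscarinic receptors close, averaged 145 ± 15.4 with estrogen, 149 ± 39.8 with progesterone, 140 ± 33.0 with both hormones and 160 ± 26.7 with placebo (SD, n = 3 each). KCNH1 read at most 15.97.

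Modifying subunits form no channel alone and alter KCNB channels. KCNG1 read 269, 89.3 and 129 with estrogen, 125, 137 and 129 with progesterone, 165, 107 and 125 with both hormones, and 157, 92.1 and 94.4 with placebo, and estrogen array 1 was the highest. KCNS3 ran from 57.2 to 137 and had an F test p of 0.626. KCNF1, KCNS1, KCNV1 and KCNV2 were too dim to be tested.

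The 3 tested auxiliary subunits had log2 changes against placebo between −0.22 and 0.19. KCNAB2, a cytoplasmic beta subunit of KCNA channels, had −0.16 for estrogen, −0.0006 for progesterone and −0.22 for both hormones. Its second tested probe set, at 87.8 to 122, had 0.06, 0.14 and 0.24 in the same order. KCNAB1 and KCNMB1, the beta subunit of KCNMA1, had F test p values of 0.958 and 0.904. KCNE1 and KCNIP4 were not tested.

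**Figure D4:**
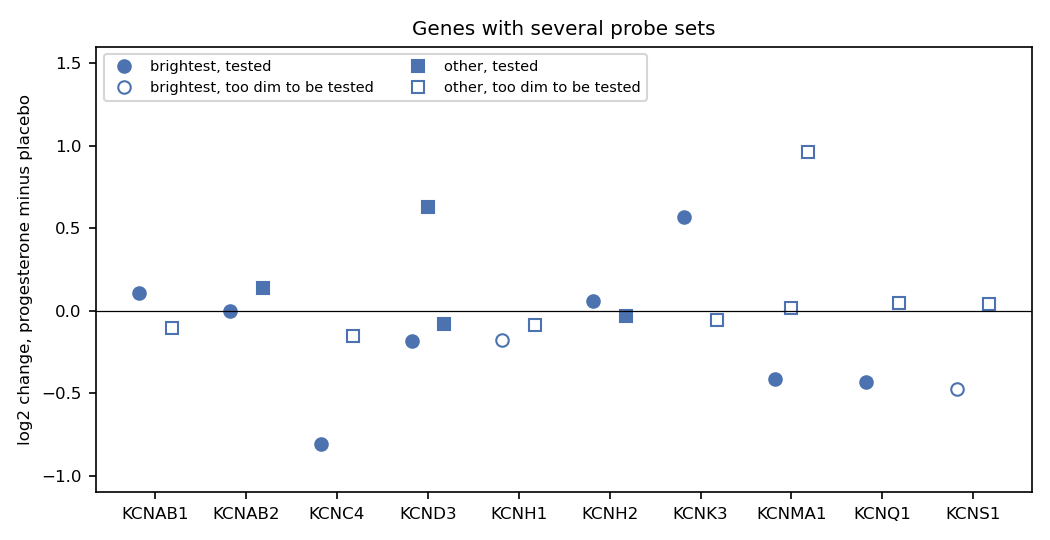
Log2 change with progesterone minus placebo (fit with no brightness filter, so dim probe sets are included) for the 10 potassium channel genes with several probe sets. Circles are the brightest probe set of a gene and squares the others, and open symbols were too dim to be tested. The brightest probe sets of KCNC4, KCNK3, KCNMA1, KCNQ1 and KCNS1 lie away from 0, while their other probe sets lie near 0 or, for 1 of KCNMA1, on the other side. For KCND3, 1 of the other probe sets lies at 0.63.

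Counts over the 26 tested genes were read against all tested probe sets. With estrogen against placebo, limma called 0 members after adjustment (background 0%), 0 members had an unadjusted p under 0.05 (background 3.16%), and 0 were free of overlap between the groups (background 6.13%). Positive and negative log2 changes numbered 13 each, with a median of −0.0028 against −0.0047 over all probe sets. The smallest unadjusted p was 0.190, for KCNK3.

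With progesterone against placebo, limma called 0 members after adjustment (background 0.0398%). At an unadjusted p under 0.05 there were 4 of 26, or 15.4% (background 8.24%), 1 higher (background 3.92%) and 3 lower (background 4.33%). Arrays did not overlap for 3 of 26, or 11.5% (background 16.7%), with KCNK3 above placebo (background 8.56%) and KCNJ6 and KCNJ2 below (background 8.1%). Negative log2 changes numbered 16 and positive ones 10.

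With both hormones against placebo, limma called 0 members (background 0.0133%), and 1 of 26, KCND1, had an unadjusted p under 0.05, or 3.85% (background 3.38%). Arrays did not overlap for 2 of 26, KCNQ1 and KCNJ4, or 7.69% (background 8.92%). Positive log2 changes numbered 16 and negative ones 10, with a median of 0.04 against −0.0031 over all probe sets.

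Between both hormones and estrogen, limma called 0 members (background 0%), 0 of the 26 had an unadjusted p under 0.05 (background 2.87%), and 1, KCNMA1, was free of overlap (3.85%, background 6.74%). The unadjusted count became 3 without estrogen array 1, 1 without both-hormone array 1 and 2 without both of these arrays. Between both hormones and progesterone, limma also called 0 members (background 0.0133%). Unadjusted, there were 3 of 26, or 11.5% (background 7.71%), namely KCNC4, KCNJ6 and KCNN3, all higher with both hormones (background 4.06%) and none lower (background 3.65%). Arrays did not overlap there for 5 of 26, or 19.2% (background 15.7%), which were KCNC4, KCNJ6 and KCNN3 above (background 7.52%) and KCNK3 and KCNC1 below (background 8.21%). On the scale as deposited KCNJ6 overlapped. This comparison and that with placebo share the 3 progesterone arrays, so the same readings enter both.

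For the interaction, limma called 0 members (background 0%), and the 2 at an unadjusted p under 0.05, KCNC4 and KCNK3, were 7.69% (background 4.99%). The F test called 0 members (background 0.0531%) with 2 at an unadjusted p under 0.05, KCNC4 and KCNJ6, again 7.69% (background 5.79%). The precision was limited by 3 arrays a group. For a comparison of 2 groups the median half-width of the 95% interval was 0.62 on the log2 scale, from 0.35 for KCNJ4 to 1.36 for KCNA6, so changes of that size could lie within the intervals of members that did not pass.

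Genes outside the KCN symbols that carry potassium or act with these channels were listed as well. Of 40 listed, 28 were named on the array and 23 were tested, and limma called 0 of them after adjustment in any comparison with placebo. Unadjusted, 2 of the 23 had a p under 0.05 in each of these comparisons, or 8.7%, where the background was 3.16% for estrogen, 8.24% for progesterone and 3.38% for both hormones. With progesterone these were HCN2, a subunit of the hyperpolarization-activated pacemaker current, at −0.45, and the G-protein subunit GNB3 at 0.41. With estrogen they were CNTNAP2, which clusters potassium channels at the axon, at 0.62 and GNB2 at −1.41, and with both hormones CNTNAP2 at 0.64 and GNB3 at 0.48. Without the 2 arrays of high ribosomal signal, none of these 4 values with estrogen or both hormones had an unadjusted p under 0.05, and GNB2 with estrogen was −0.79. The serotonin autoreceptor HTR1A had no probe set under its symbol and was not analysed here.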

How the data were processed

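Per the labels' protocols, Trizol and Qiagen kits were used for the RNA, and the target carried biotin. The deposited values are a linear intensity per probe set, made by the authors. The software and scaling behind them were not stated in the sources used here. Array medians spanned 0.21 on the log2 scale, so log2(intensity + 8.26), the offset being the pooled 10th percentile of the deposited values, was quantile normalized. Fold changes on this scale understate dim probe sets. The 67 array controls were left out, and the lowest 40% of probe sets by mean were filtered, leaving 7535. limma 3.58.1 (R 4.3.3) fitted the 4 groups over all 12 arrays, with 2-sided tests, Benjamini-Hochberg adjustment over all tested probe sets and a threshold of 0.05. The fit was tested on simulated data with changes planted in the progesterone group. Against placebo it recovered 47 of 100 changes of log2 1 and 87 of 100 changes of log2 2, with 5 false calls among 139. Same-numbered estrogen and both-hormone arrays had deviations correlated at 0.13 to 0.41 in all 3 pairs. The largest was that of the 2 arrays of high ribosomal signal. Estrogen array 3 correlated more with both-hormone array 2 (0.21) than with both-hormone array 3 (0.13), and the labels state no pairing. Intensities are as deposited. Overlap between groups was judged on normalized values for tested probe sets and on deposited intensities for those too dim to be tested. All 43 symbols occur in the macaque RefSeq table. Sequences were not used here.

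Genes named were those with an F test p under 0.05, up to 5 per direction without overlap in each comparison with placebo, the 2 smallest p of each other comparison, a list of G-protein-gated, glial and calcium-activated channels, and the brightest of each subfamily. KCNJ8, KCNA3, KCNA6 and further genes were added after their values were seen. Members, markers and lists were chosen with earlier results of these data known.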

Additional observations from a re-analysis of the deposited data

How the results depend on the processing

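Under 24 alternatives (another offset, normalization, filter, variance model or array weighting, each array left out, both arrays of high ribosomal signal left out, the replicate block, only the groups compared, or every probe set of a gene) limma called 0 potassium channel genes in each comparison it could be run on. Through these alternatives 14 log2 values were followed (those of the naming rule, with KCNC4 and KCNJ8 for progesterone and KCND1 for both hormones). They kept their direction in each alternative that held the gene. As they were picked by their values on these same arrays, a kept direction is weak support. KCNA6 with both hormones, not among the 14, turned from −0.30 to 0.39 without the 2 arrays of high ribosomal signal. The count at an unadjusted p under 0.05 with progesterone, 4 of 26, ran from 2 to 5. It was 2 without placebo array 1, placebo array 3, estrogen array 2 or progesterone array 3. With both hormones the count of 1 became 0 in 8 alternatives, among them leaving out any 1 of the 3 placebo arrays. With both hormones against progesterone, 3 ran from 1 (without both-hormone array 2) to 6 (array weights), and the F test count of 2 ran from 0 to 4. With both hormones against estrogen, 0 ran up to 3 (without estrogen array 1). The cause was not tested. The replicate block, in which same-numbered arrays are paired, called 0 members in each comparison and left 2 at an unadjusted p under 0.05 with progesterone. Same-numbered arrays had deviations correlated between −0.22 and 0.41, over 0.1 in 5 of 18 pairs, and 5 of 12 arrays correlated best with their own number, so the numbers were not taken to pair monkeys over the 4 groups. All 3 estrogen and both-hormone pairs lay over 0.1, from 0.13 to 0.41, the largest between the arrays of high ribosomal signal. Pairs of unlike number in these groups reached 0.21. A replicate block on these 2 groups alone, chosen after seeing the data, called 0 members, left 0 at an unadjusted p under 0.05 and changed no call. Signal over background limits the 17 dim genes.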

Other observations

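One probe set shared by KCNJ12 and KCNJ18, inward rectifiers of near-identical sequence, was left out of the members because it carries 2 symbols. It read 263, 146 and 164 with estrogen and 161, 125 and 111 with placebo, a log2 change of 0.47 with an unadjusted limma p of 0.0964, and its groups overlapped. The values with progesterone and both hormones were 0.22 and 0.25.

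The tested potassium channel genes had a median SD within groups of 0.37 on the log2 scale, and all tested probe sets had 0.30. Placebo array 1 was the lowest of the 12 arrays for 7 of the 26 genes (26.9%), while it was the lowest for 12.4% of all tested probe sets. On normalized values of both arrays of high ribosomal signal, KCNQ1 lay above the other 10 arrays, and KCNA6 and KCNAB1 lay below them. All tested probe sets did so in 8.94% (above) and 8.28% (below).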
